A study of Mus musculus with 12 samples.

Results

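The 45 genes described here encode machinery that takes a cell from G2 through mitosis. They cover the cyclin and CDK1 switch, mitotic kinases, spindle checkpoint, mitotic exit factors, kinetochore and spindle proteins, cytokinesis factors, condensin, Top2a and Mki67. They were chosen by name, as the rows of the deposited gene table whose symbol is in a list of 45 symbols, and all 45 were found among the 46731 genes of the table. The list holds names only, and it was put together with earlier results of these data known. Each of the 45 passed the filter on low values, an FPKM (a fragment count scaled to gene length in kilobases and to library size) of at least 1 in at least 3 libraries, which left 12368 genes for testing.

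RNA was sequenced from ATDC5 cells, a mouse line derived from a teratocarcinoma and used as a model of chondrocytes. All cells carried a lentiviral hairpin integrated as a stable line, either a control sequence (shRNA-NC, which the labels call wildtype) or a hairpin against Ddx5 (shRNA-Ddx5), the gene of a DEAD-box RNA helicase that acts in splicing and transcription. Both lines were kept for 6 h without stimulation, here called medium, or with a mix of inflammatory cytokines, IL-1β at 5 ng/ml plus TNF-α at 25 ng/ml. There were 3 libraries in each of 4 groups, which the study describes as independent experiments. A single hairpin and a single stable line stand behind each genotype, so an effect of Ddx5 and any other difference between the lines cannot be told apart.

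Mitotic genes are transcribed in a wave that peaks in G2 and M. CDK1 with its B-type cyclins drives entry into mitosis, kinetochores join chromosomes to the spindle, and the spindle checkpoint holds back the anaphase-promoting complex with its activator CDC20 until every chromosome is attached. Destruction of securin and cyclin B then releases separase and ends mitosis. In bulk RNA, fewer cells in G2 and M and less RNA per cell cannot be told apart.

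Promoters of this gene class are known for 2 short elements, the cell cycle genes homology region (CHR), read by the DREAM complex and by MYBL2 with FOXM1, and the CCAAT box, read by NF-Y. RefSeq promoters on GRCm38.p6, from 250 bases before to 50 bases after the start site, were matched to 38 of the 45 members. Aurkb, Ccna2, Cdc25c, Incenp, Kif20a, Smc4 and Tpx2 had none. The CHR was searched as TTTGAA and the CCAAT box as CCAAT, on both strands, and neither motif contains the other. Matches can overlap: neighbouring CHR and CCAAT matches can share an end letter, and CCAAT matches on opposite strands can share their last 2 letters, in which case each is counted. A CHR was present in 27 of the 38 members (71.1%) and in 17.9% of all 32851 promoters of that length. A CCAAT box was present in 28 members (73.7%) and in 37.4% of all promoters, and both motifs in 23 members (60.5%) and in 6.95% of all. A match is a description of the letters and not a binding site.

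The promoters are printed for the members with the largest changes after knockdown in medium, 4 that rose and 3 that fell, since these are the genes the comparison turns on (Smc4, which also fell, had no match). Those that rose are Ube2c at chr2:164769679-164769978 on the plus strand, Plk1 at chr7:122159185-122159484 on the plus strand, Ccnb1 at chr13:100786437-100786736 on the minus strand and Cdk1 at chr10:69352863-69353162 on the minus strand. Those that fell are Cenpf at chr1:189688037-189688336 on the minus strand, Cenpe at chr3:135212313-135212612 on the plus strand and Mki67 at chr7:135716330-135716629 on the minus strand. Each runs 5′ to 3′ along its gene, and capitals mark the CHR and CCAAT matches on either strand.
Ube2c: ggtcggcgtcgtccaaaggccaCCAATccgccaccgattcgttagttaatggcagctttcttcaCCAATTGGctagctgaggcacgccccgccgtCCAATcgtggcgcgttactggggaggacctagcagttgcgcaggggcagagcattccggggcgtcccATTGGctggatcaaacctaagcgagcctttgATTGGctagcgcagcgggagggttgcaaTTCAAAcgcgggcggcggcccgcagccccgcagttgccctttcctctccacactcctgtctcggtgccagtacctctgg
Plk1: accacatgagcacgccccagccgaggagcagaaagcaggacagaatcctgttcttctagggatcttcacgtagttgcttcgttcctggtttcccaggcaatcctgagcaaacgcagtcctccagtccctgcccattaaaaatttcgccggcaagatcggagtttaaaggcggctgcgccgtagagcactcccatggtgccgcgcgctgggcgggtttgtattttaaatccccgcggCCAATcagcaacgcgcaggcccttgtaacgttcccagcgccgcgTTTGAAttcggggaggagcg
Ccnb1: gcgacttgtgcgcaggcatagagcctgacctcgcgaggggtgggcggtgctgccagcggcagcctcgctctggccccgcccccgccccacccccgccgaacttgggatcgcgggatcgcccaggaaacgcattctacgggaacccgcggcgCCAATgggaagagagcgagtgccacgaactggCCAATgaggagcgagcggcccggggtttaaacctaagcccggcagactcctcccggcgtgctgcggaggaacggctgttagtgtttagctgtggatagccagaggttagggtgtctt
Cdk1: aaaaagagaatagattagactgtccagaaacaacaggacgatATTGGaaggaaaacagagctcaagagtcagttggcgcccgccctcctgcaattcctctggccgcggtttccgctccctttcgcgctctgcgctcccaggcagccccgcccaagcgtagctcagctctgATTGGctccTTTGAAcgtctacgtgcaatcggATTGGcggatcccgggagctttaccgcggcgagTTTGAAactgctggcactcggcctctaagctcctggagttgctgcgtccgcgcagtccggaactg
Cenpf: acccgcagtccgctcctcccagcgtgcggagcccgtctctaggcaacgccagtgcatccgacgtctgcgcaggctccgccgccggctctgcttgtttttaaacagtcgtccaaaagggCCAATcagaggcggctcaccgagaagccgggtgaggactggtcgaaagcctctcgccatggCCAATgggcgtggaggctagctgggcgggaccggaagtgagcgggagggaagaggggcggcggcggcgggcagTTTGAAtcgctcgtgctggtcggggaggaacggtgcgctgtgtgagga
Cenpe: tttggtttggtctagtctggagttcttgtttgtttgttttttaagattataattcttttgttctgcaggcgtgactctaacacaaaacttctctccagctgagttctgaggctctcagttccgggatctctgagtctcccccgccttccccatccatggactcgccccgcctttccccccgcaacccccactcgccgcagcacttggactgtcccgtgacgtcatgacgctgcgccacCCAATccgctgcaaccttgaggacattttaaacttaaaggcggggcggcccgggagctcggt
Mki67: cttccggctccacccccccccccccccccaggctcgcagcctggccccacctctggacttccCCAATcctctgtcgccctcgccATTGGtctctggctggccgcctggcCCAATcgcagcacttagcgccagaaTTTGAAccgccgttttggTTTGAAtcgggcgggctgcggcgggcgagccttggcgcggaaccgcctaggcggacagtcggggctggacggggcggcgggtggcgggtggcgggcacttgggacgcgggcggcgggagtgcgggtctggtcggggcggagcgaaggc
The Ube2c promoter held 6 CCAAT matches, 2 of them in 1 overlapping stretch, and 1 CHR, and the Ccnb1 promoter 2 CCAAT matches and no TTTGAA. The Cenpf promoter, of a gene that fell, held 2 CCAAT matches and 1 CHR. Among members with a promoter, a CHR was present in 11 of 19 that rose after knockdown in medium, in 6 of 7 that fell and in 10 of 12 that did not pass the test. Both motifs were thus found in members that moved in either direction.

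Each library held 14119199 to 19276520 fragments on genes, and the lowest number of fragments behind any member in any library was 198 (Cdc25c). Ddx5 was at 325, 337 and 294 FPKM in shRNA-NC and at 90.7, 118 and 99.9 in shRNA-Ddx5 in medium, and at 327, 302 and 301 against 101, 93.6 and 104 with cytokines. The hairpin groups did not overlap in either comparison (two-sided exact permutation test, p = 0.1 in both, the lowest value open to groups of 3). Of 13 chondrocyte markers 5 reached 1 FPKM in some library (Sox9, Sox5, Col2a1, Col11a1 and Col11a2), while Acan, the main cartilage proteoglycan, was at most at 0.033 FPKM. The summed chondrocyte markers were at 41.8 to 48.2 FPKM in shRNA-NC and 32.8 to 35.5 in shRNA-Ddx5 in medium, and at 14.7 to 21.2 and 12.1 to 12.3 with cytokines. Of 10 markers of other cell types only Cd68 and Tubb3 reached 1 FPKM, with a summed level of 3.58 to 10.2 over the 12 libraries, and Ptprc, Epcam, Cdh5 and Myod1 were listed at 0 in all of them. The part of these levels in the results below was not tested.

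To see whether loss of Ddx5 moved the mitotic genes in resting conditions, shRNA-Ddx5 was compared with shRNA-NC in medium. Of the 45 members 23 rose, 8 fell and 14 did not pass the test, a limma adjusted p under 0.05. Across all genes tested 25.3% rose and 21.7% fell. The median log2 fold change was 0.26 over the members and 0.03 over all genes. The shRNA-Ddx5 libraries lay above all shRNA-NC libraries for 24 members and below them for 8, beside 28.7% and 24.8% of all genes. The heat map of all members shows the split: Ccnb1, Cdk1, Plk1 and Ube2c, for example, were higher, and Cenpe, Cenpf, Smc4 and Mki67 were lower.

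**Figure D1:**
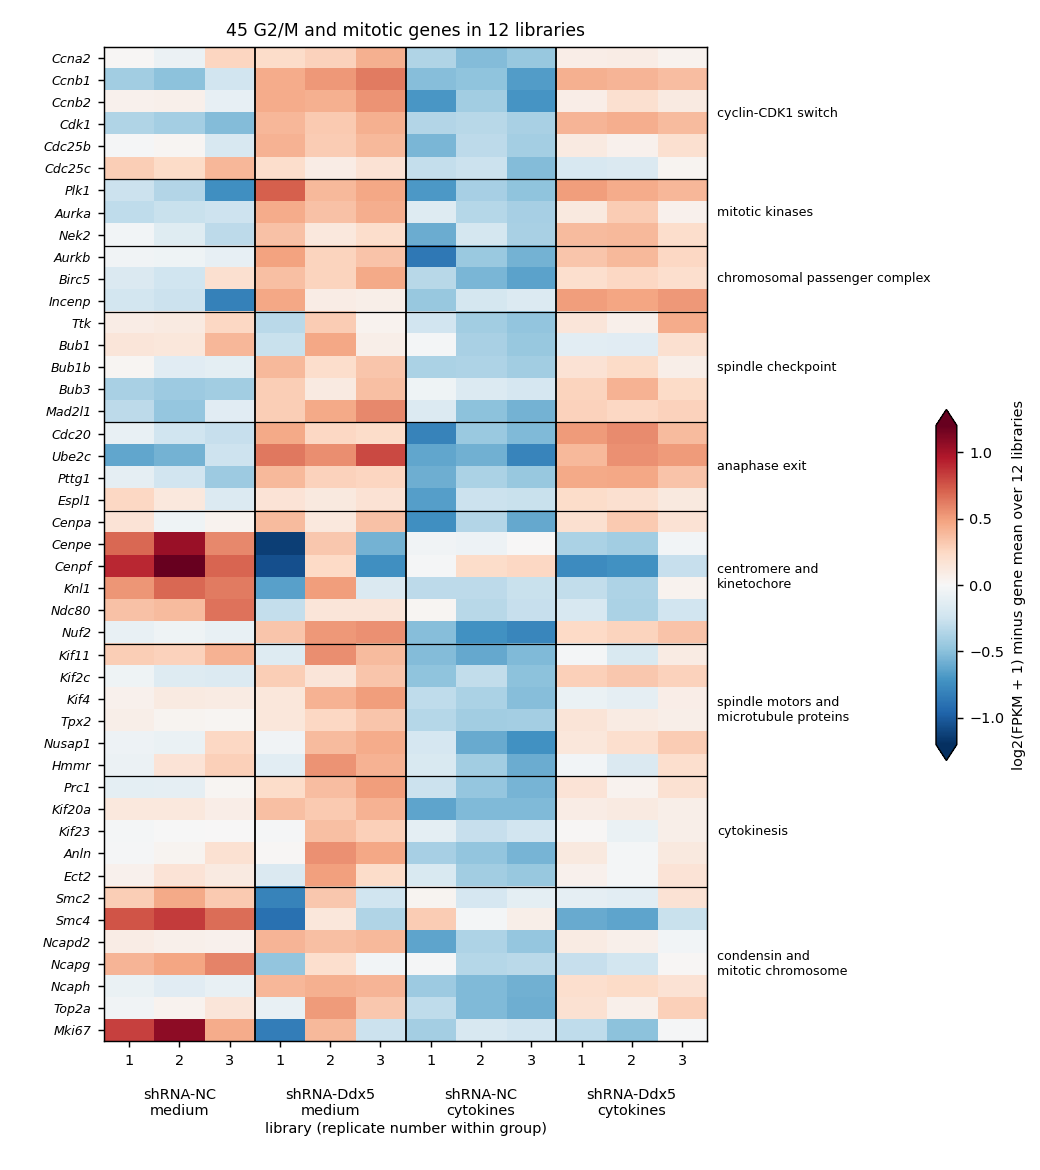
Each row is 1 of the 45 members, ordered by role, and each column 1 of the 12 libraries, with colour giving log2(FPKM + 1) minus the gene's mean over the 12 libraries. The shRNA-NC libraries with cytokines are blue for most rows, and Cenpe, Cenpf, Smc4 and Mki67 are red in shRNA-NC in medium and bluest in shRNA-Ddx5 replicate 1 in medium.

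With cytokines the knockdown was followed by a rise in 33 members, a fall in 2 and no call in 10, against 23.5% and 22.1% of all genes tested. The median log2 fold change was 0.55 over the members and 0.01 over all genes. Libraries of the groups did not overlap for 36 members that were higher and 2 that were lower, beside 31.7% and 29.9% of all genes. The comparisons in the 2 media share no library. Both do share their shRNA-NC libraries with the comparison of cytokines against medium in shRNA-NC below. The 23 members that rose in medium rose with cytokines as well, Cenpf and Smc4 fell in both, and 10 more passed with cytokines and not in medium (Ccna2, Ttk, Espl1, Cenpa, Kif11, Kif4, Nusap1, Anln, Ect2 and Top2a). Cdc25c, Bub1, Hmmr and Kif23 passed in neither. Up to the comparison of cytokines with medium, a rise or fall with cytokines means shRNA-Ddx5 against shRNA-NC, both with cytokines.

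**Figure D2:**
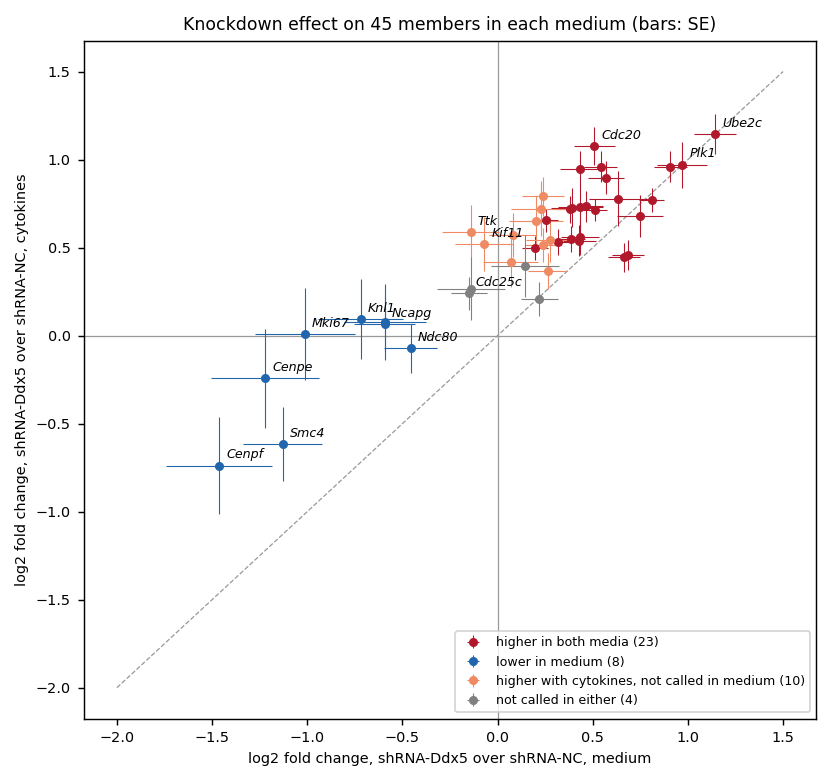
Each point is 1 member, with its log2 fold change of shRNA-Ddx5 over shRNA-NC in medium on the horizontal and with cytokines on the vertical axis, and bars give the standard error. Ube2c, Plk1 and Ccnb1 sit at the upper right near the dashed line of equal change, and the 8 members that fell in medium, led by Cenpf at -1.46, lie above that line.

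In the cyclin and CDK1 switch, 4 of 6 members rose in medium and 5 of 6 with cytokines. Ccnb1, the main mitotic B-type cyclin, was at 72.3, 68.6 and 82.4 FPKM in shRNA-NC and at 132, 139 and 149.7 in shRNA-Ddx5 in medium, and at 67.6, 68.9 and 60.3 against 130.2, 129 and 126 with cytokines. The fitted log2 fold change was 0.91 in medium (SE 0.09, limma adjusted p 1.57e-05) and 0.96 with cytokines (SE 0.09, limma adjusted p 1.06e-05). The lowest shRNA-Ddx5 library was above the highest shRNA-NC library in both media. Cdk1, the kinase that Ccnb1 activates, was at 42.2, 40.7 and 37.6 FPKM in shRNA-NC and 71.9, 67.7 and 73.6 in shRNA-Ddx5 in medium, and at 42.3, 43.0 and 41.3 against 72.5, 73.9 and 71.3 with cytokines. Its mean was 1.77-fold higher in medium and 1.72-fold higher with cytokines (log2 0.81 and 0.77, SE 0.07 in both, limma adjusted p 5.87e-06 and 7.85e-06). The replicates were tight and the groups lay far apart in each medium.

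Ccnb2, the second B-type cyclin, was at 48.3, 48.6 and 43.3 FPKM in shRNA-NC and 63.5, 62.8 and 67.97 in shRNA-Ddx5 in medium, and at 28.2, 34.5 and 28.0 against 49.2, 53.1 and 49.997 with cytokines, and it rose in both media (log2 0.46 and 0.73). Cdc25b, the phosphatase that starts CDK1 activation, was at 11.05, 11.4 and 9.67 FPKM in shRNA-NC and 15.2, 14.0 and 14.9 in shRNA-Ddx5 in medium, and at 7.31, 8.80 and 8.21 against 12.1, 11.6 and 12.9 with cytokines. It rose by 0.43 and 0.54 on the log2 scale, and no library of the groups overlapped. Cdc25c, the phosphatase of the same family that acts at mitotic entry, was at 9.53, 9.07 and 10.3 FPKM in shRNA-NC and 8.90, 8.13 and 8.64 in shRNA-Ddx5 in medium (log2 -0.15, 95% interval -0.36 to 0.06, limma adjusted p 0.209). With cytokines it was at 6.04, 6.19 and 4.99 against 6.53, 6.58 and 7.76 (log2 0.24, limma adjusted p 0.0573). Its libraries did not overlap in either medium, with the knockdown lower in medium and higher with cytokines, yet neither difference passed the test. Ccna2, the S and G2 cyclin, had a log2 fold change of 0.24 in medium (limma adjusted p 0.0588) and rose by 0.51 with cytokines.

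All 3 mitotic kinases and all 3 members of the chromosomal passenger complex, which corrects wrong spindle attachments, rose in both media. In medium the rises of Nek2, Aurkb and Birc5 were lost in at least 1 of the other settings tried. Plk1, the polo kinase that drives mitotic entry, was at 27.9, 26.1 and 19.7 FPKM in shRNA-NC and 55.5, 44.2 and 46.6 in shRNA-Ddx5 in medium, and at 20.3, 25.2 and 23.6 against 47.7, 46.0 and 44.3 with cytokines. Its log2 fold change was 0.97 in both media (SE 0.13, limma adjusted p 0.000145 and 0.000138), with a wide gap between the groups in each. Aurka, a spindle pole kinase, rose by 0.68 and 0.46 and Nek2, a centrosome kinase, by 0.39 and 0.73 on the log2 scale. Aurkb, the kinase of the passenger complex, was at 48.2, 47.8 and 46.3 FPKM in shRNA-NC and 69.9, 60.1 and 63.4 in shRNA-Ddx5 in medium, and at 27.0, 36.2 and 33.2 against 62.7, 65.2 and 59.3 with cytokines. Its log2 fold change was 0.43 in medium and 0.94 with cytokines (SE 0.10 in both), and the groups did not overlap. Birc5 and Incenp, its partners, rose by 0.44 and 0.63 in medium and by 0.73 and 0.78 with cytokines.

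Of 5 spindle checkpoint genes, 3 rose in medium and 4 with cytokines. Bub3, a WD-repeat protein that recruits BUB1 and BUBR1 to kinetochores, was at 47.6, 46.3 and 46.7 FPKM in shRNA-NC and 77.1, 67.7 and 80.7 in shRNA-Ddx5 in medium, and at 60.5, 56.1 and 54.4 against 75.7, 84.2 and 73.9 with cytokines. It rose by 0.67 in medium and 0.44 with cytokines on the log2 scale, and every shRNA-Ddx5 library was above every shRNA-NC library of its medium. Mad2l1, which inhibits CDC20, rose by 0.75 and 0.68, and Bub1b, the gene of BUBR1, by 0.39 and 0.55. Ttk, the kinase at the head of the checkpoint, had a log2 fold change of -0.14 in medium (limma adjusted p 0.468) and rose by 0.59 with cytokines, while Bub1 passed in neither (-0.14 and 0.27).

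Of the 4 mitotic exit genes 3 rose in medium and 4 with cytokines, and Ube2c had the highest log2 fold change of the 45 members in both media. Ube2c, the ubiquitin-conjugating enzyme of the anaphase-promoting complex, was at 74.5, 77.3 and 96.7 FPKM in shRNA-NC and 179, 170.0 and 200.46 in shRNA-Ddx5 in medium, and at 74.3, 76.8 and 66.0 against 151, 169 and 164 with cytokines. Its mean was 2.21-fold higher in medium and 2.23-fold higher with cytokines (log2 1.14 and 1.15, SE 0.11 in both, limma adjusted p 1.6e-05 and 1.43e-05). Replicate 3 was the highest library of both groups in medium, and the groups stayed far apart. Cdc20, the activator that the checkpoint holds back, was at 80.0, 72.1 and 69.8 FPKM in shRNA-NC and 117, 101 and 99.2 in shRNA-Ddx5 in medium, and at 48.4, 62.0 and 58.7 against 121, 126 and 111 with cytokines. Its mean was 1.43-fold higher in medium and 2.12-fold higher with cytokines (log2 0.51 and 1.08, SE 0.11 in both), without overlap. Pttg1, securin, rose by 0.57 and 0.90, and Espl1, the separase it holds, had 0.08 in medium (limma adjusted p 0.63) and rose by 0.57 with cytokines.

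**Figure D3:**
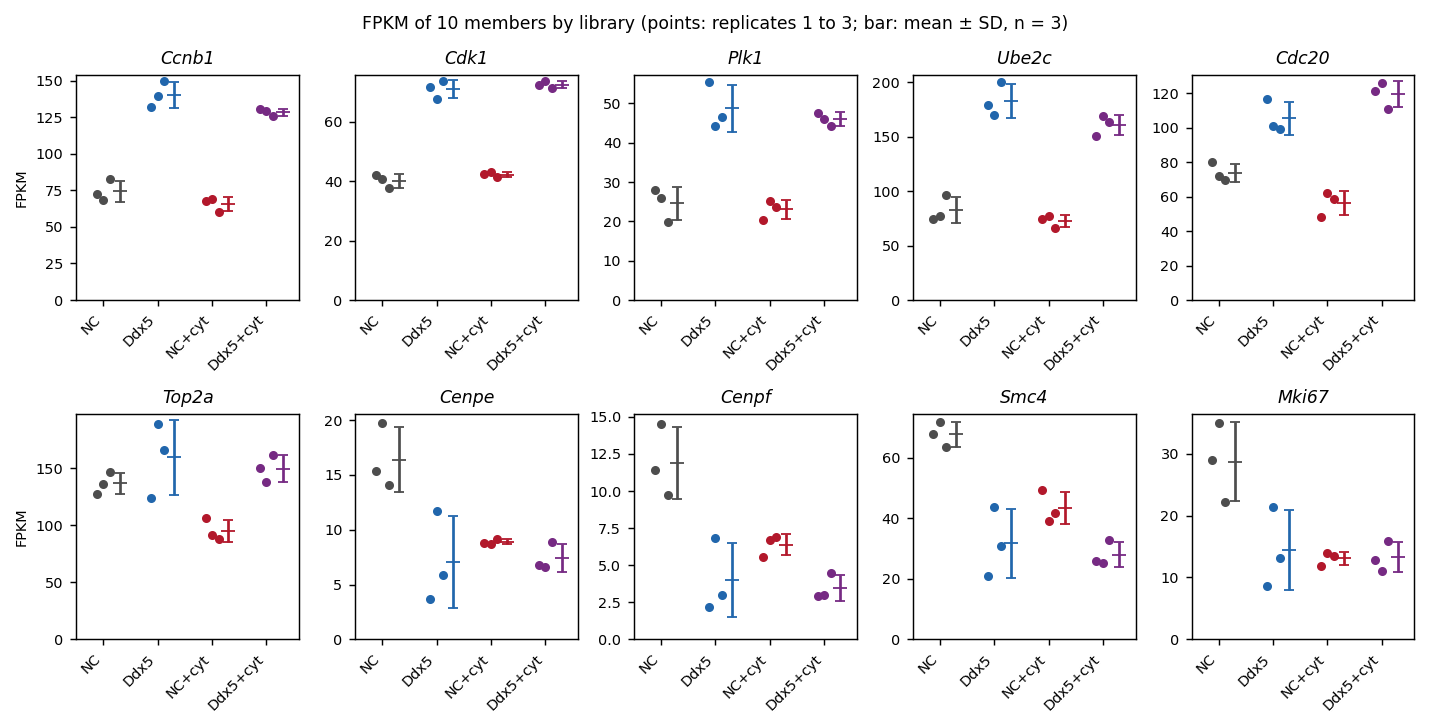
Points are the FPKM of 10 members in each of the 12 libraries, with the mean and SD of the 3 replicates beside them, by hairpin and stimulation (cyt, cytokines). For Ccnb1, Cdk1, Plk1, Ube2c and Cdc20 every shRNA-Ddx5 point lies above every shRNA-NC point, and Cenpe, Cenpf, Smc4 and Mki67 are highest in shRNA-NC in medium.

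The centromere and kinetochore members went the other way in medium, where 4 of 6 fell and 1 rose, beside 21.7% and 25.3% of all genes. Of 32 other kinetochore and centromere genes, given below, 15 rose and none fell in medium. Cenpf, a large coiled-coil protein of the outer kinetochore, was at 11.4, 14.6 and 9.77 FPKM in shRNA-NC and 2.19, 6.81 and 2.96 in shRNA-Ddx5 in medium, and at 5.56, 6.71 and 6.88 against 2.93, 3.00 and 4.47 with cytokines. The log2 fold change was -1.46 in medium (SE 0.28, limma adjusted p 0.00134) and -0.74 with cytokines (SE 0.28, limma adjusted p 0.0486). The groups did not overlap, and shRNA-Ddx5 replicate 2 in medium was well above the other replicates. Cenpe, the kinetochore motor that moves chromosomes to the spindle equator, was at 15.4, 19.7 and 14.1 FPKM in shRNA-NC and 3.63, 11.68 and 5.85 in shRNA-Ddx5 in medium, and at 8.80, 8.72 and 9.15 against 6.76, 6.598 and 8.89 with cytokines. It fell in medium (log2 -1.22, SE 0.28, limma adjusted p 0.00431) and did not pass with cytokines (log2 -0.24, limma adjusted p 0.511), where the groups overlapped.

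Knl1, the scaffold that recruits the checkpoint, was at 6.71, 7.62 and 7.24 FPKM in shRNA-NC and 2.41, 6.59 and 3.74 in shRNA-Ddx5 in medium, and at 3.30, 3.29 and 3.44 against 3.36, 3.15 and 4.51 with cytokines. It fell in medium (log2 -0.72, SE 0.22, limma adjusted p 0.021) and had a log2 fold change of 0.09 with cytokines, and its highest shRNA-Ddx5 library in medium lay just under the lowest shRNA-NC library. Ndc80 and Nuf2, which encode partners in the complex that binds microtubules, moved apart. Nuf2 was at 25.9, 26.5 and 25.9 FPKM in shRNA-NC and 34.9, 39.9 and 40.9 in shRNA-Ddx5 in medium, and at 19.0, 16.3 and 15.5 against 32.8, 33.3 and 35.3 with cytokines. Nuf2 rose by 0.54 and 0.96 on the log2 scale, whereas Ndc80 fell in medium (-0.46, limma adjusted p 0.0182) and did not pass with cytokines (-0.07). Cenpa, the centromeric histone, had 0.24 in medium (limma adjusted p 0.0978) and rose by 0.79 with cytokines.

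Among condensin and mitotic chromosome genes 4 of 7 fell and 2 rose in medium, and 1 fell and 3 rose with cytokines. Smc4, a condensin ATPase, was at 67.8, 72.0 and 63.7 FPKM in shRNA-NC and 20.9, 43.7 and 30.8 in shRNA-Ddx5 in medium, and at 49.3, 39.0 and 41.8 against 25.8, 25.3 and 32.9 with cytokines. It fell in both media (log2 -1.13 and -0.62, SE 0.21 in both, limma adjusted p 0.00116 and 0.0318), with no overlap. Its partner Smc2 fell in medium (log2 -0.59, limma adjusted p 0.0416), although 1 shRNA-Ddx5 library lay within the shRNA-NC range, and had 0.08 with cytokines. Of the condensin I subunits Ncapg fell in medium (-0.59), while Ncaph and Ncapd2 rose by 0.51 and 0.32 in medium and by 0.71 and 0.53 with cytokines. Ncapd2 was at 42.1, 41.3 and 41.2 FPKM in shRNA-NC and 52.8, 51.2 and 52.0 in shRNA-Ddx5 in medium, and at 25.2, 30.4 and 28.4 against 42.6, 41.2 and 38.6 with cytokines, with no overlap in either medium.

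Mki67, the gene of the proliferation marker Ki-67 that coats mitotic chromosomes, was at 29.0, 34.9 and 22.2 FPKM in shRNA-NC and 8.58, 21.4 and 13.2 in shRNA-Ddx5 in medium. It fell (log2 -1.01, SE 0.26, limma adjusted p 0.00822), with the highest shRNA-Ddx5 library just under the lowest shRNA-NC library. With cytokines it was at 11.9, 13.9 and 13.5 against 12.8, 11.1 and 15.9 (log2 0.01, 95% interval -0.57 to 0.58, limma adjusted p 0.984), and the groups overlapped. Top2a, the topoisomerase that untangles chromosomes, was the most abundant member and was at 128, 136 and 146 FPKM in shRNA-NC and 124, 189 and 166 in shRNA-Ddx5 in medium (log2 0.20, limma adjusted p 0.27). With cytokines it was at 106, 91.0 and 87.5 against 149.7, 138 and 162 and rose by 0.65 (limma adjusted p 0.00311). In medium shRNA-Ddx5 replicate 1 was the lowest of the 6 Top2a libraries and replicate 2 the highest.

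Of the 6 spindle motor and microtubule genes 2 rose in medium and 5 with cytokines, and of the 5 cytokinesis genes 2 and 4 did. Kif11, the motor that pushes spindle poles apart, was at 37.6, 37.0 and 40.8 FPKM in shRNA-NC and 27.1, 45.2 and 39.8 in shRNA-Ddx5 in medium, and at 20.8, 19.5 and 20.8 against 29.9, 26.6 and 32.6 with cytokines. It did not pass in medium (log2 -0.07, limma adjusted p 0.736), where the groups overlapped, and rose by 0.52 with cytokines, where they did not. Kif4, a chromosome-bound motor, was at 13.5, 14.1 and 13.9 FPKM in shRNA-NC and 14.3, 17.6 and 18.8 in shRNA-Ddx5 in medium, and at 10.3, 9.71 and 8.81 against 12.3, 11.9 and 13.8 with cytokines. Its change passed the test with cytokines (log2 0.37) and not in medium (0.26, limma adjusted p 0.0516). Tpx2, the spindle assembly factor that activates Aurora A, rose by 0.20 and 0.50, and Kif2c, a microtubule depolymerase, by 0.38 and 0.72. Under quantile normalization the value of Tpx2 in medium was -0.03. Nusap1, a microtubule bundler, had 0.23 in medium (limma adjusted p 0.26) and rose by 0.72 with cytokines, and Hmmr, a spindle-bound hyaluronan receptor, passed in neither (0.14 and 0.39). Prc1, the midzone bundler, rose by 0.43 and 0.56, and Kif20a, a midzone motor, by 0.25 and 0.66. Anln, which scaffolds the contractile ring, and Ect2, the exchange factor that switches on RhoA at the cleavage furrow, rose with cytokines (0.55 and 0.42) and did not pass in medium (0.28 and 0.07), and Kif23, a subunit of centralspindlin, passed in neither (0.22 and 0.21).

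The members that fell in medium tended to be long genes. Of the 8 members of 6 kb or more, 5 fell and none rose in medium, with a median log2 fold change of -0.87, while 37.6% of the 2739 tested genes of that length fell and their median was -0.16. Of the 4 members under 2 kb, 3 rose, with a median of 0.49, beside 28.3% and 0.16 for the 3666 tested genes of that length. With cytokines the medians were 0.05 over the 8 long members and 0.93 over the 4 short ones, beside -0.13 and 0.16 over all genes. Across the 45 members, which share the same libraries, the Spearman correlation of length with the log2 fold change was -0.64 in medium and -0.62 with cytokines, and over the 12368 genes -0.23 in both, given as a description.

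The libraries themselves differed along length. For all genes tested, the median deviation of genes of 6 kb or more minus that of genes under 2 kb, each gene taken against its mean over the 12 libraries on the log2 scale, was 0.17, 0.33 and 0.35 in shRNA-NC in medium and -0.25, 0.10 and -0.04 in shRNA-Ddx5 in medium. With cytokines it was 0.07, 0.02 and 0.04 in shRNA-NC and -0.24, -0.34 and -0.21 in shRNA-Ddx5. It was thus lower in shRNA-Ddx5 than in shRNA-NC in each medium and lowest in medium for replicate 1, the library with the least Cenpf, Cenpe, Smc4 and Mki67. In a fit with each library's trend along gene length removed, chosen after seeing the data, 25 members rose and 9 fell in medium, and 33 rose and 1 fell with cytokines. Of the 12368 genes 5653 in medium and 5542 with cytokines passed in either direction in that fit. All 8 members that fell in medium passed in that fit too (Cenpf at -1.28, Mki67 at -0.84), and with cytokines Smc4 passed and Cenpf did not (limma adjusted p 0.0635). How far gene length itself takes part in these differences was not tested.

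**Figure D4:**
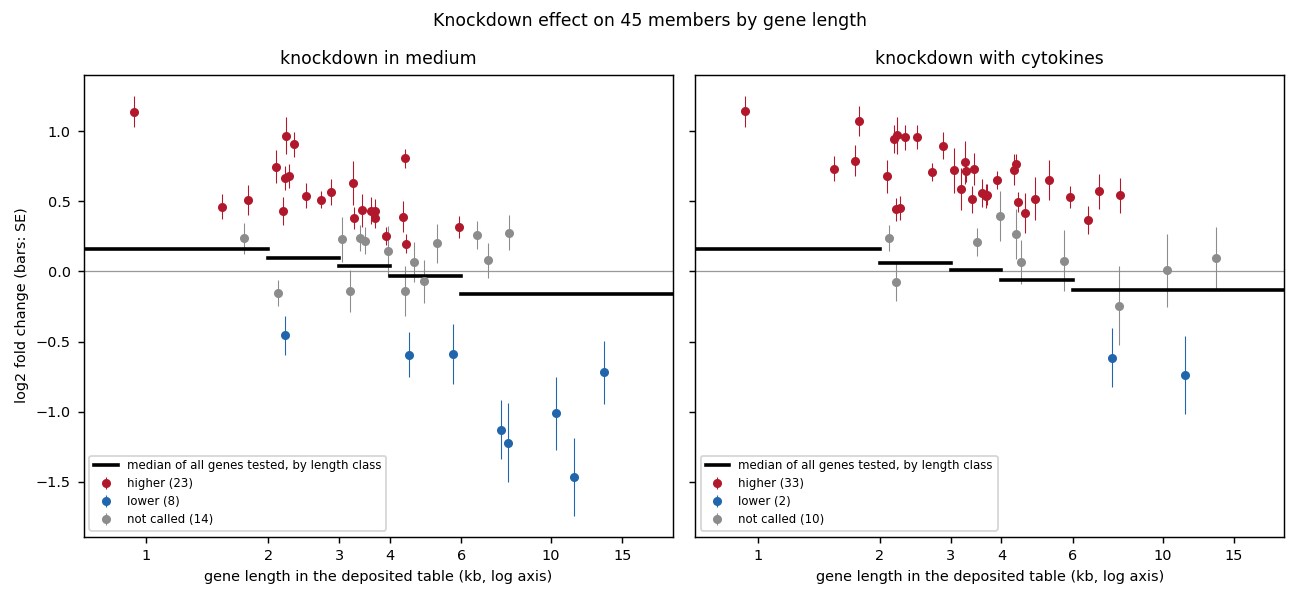
Points are the log2 fold changes of the 45 members (bars, standard error) against gene length in kb on a log axis, for the knockdown in medium (left) and with cytokines (right), and black bars give the median of all genes tested in 5 length classes. In medium the 5 members of 6 kb or more that fell lie between -0.72 and -1.46, under the class median of -0.16.

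With each library left out in turn, Cenpf, Cenpe, Smc4, Ncapg and Mki67 passed the test in medium in all 6 fits. Cenpf ranged from -1.84 without shRNA-Ddx5 replicate 2 to -1.197 without replicate 1. Knl1 lost its call in 3 of the 6 fits (without shRNA-NC replicate 2 and without shRNA-Ddx5 replicate 1 or 3), Ndc80 in 2 (without shRNA-NC replicate 3 or shRNA-Ddx5 replicate 1) and Smc2 in 5, all but the one without shRNA-Ddx5 replicate 2. Without shRNA-Ddx5 replicate 1 the log2 fold changes were -0.45 for Knl1, -0.31 for Ndc80 and -0.31 for Smc2. Over all members 27 then rose and 5 fell, while 5188 of the 12368 genes passed in either direction. Of the 23 members that rose in medium 15 passed in every other setting run without the length correction, and of the 33 that rose with cytokines 29 did. Lost in at least 1 of them were Aurkb, Birc5, Cdc20, Kif20a, Ncapd2, Nek2, Prc1 and Tpx2 in medium. With cytokines these were Ect2, Kif11, Kif4 and Top2a. The falls with cytokines held less well: leaving out any library but shRNA-Ddx5 replicate 3 took Cenpf over the threshold, and leaving out any but shRNA-NC replicate 2 or shRNA-Ddx5 replicate 3 took Smc4 over it (limma adjusted p up to 0.135 and 0.104).

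Cytokines were compared with medium in each line to see how the mitotic genes responded to inflammation. In shRNA-NC 33 members fell, 1 rose (Bub3, log2 0.27) and 11 did not pass the test, beside 15.2% of all genes that fell and 18.6% that rose. The median log2 fold change was -0.49 over the members and 0.02 over all genes. Mki67 fell most (-1.05, SE 0.26, limma adjusted p 0.00959), followed by Knl1 (-0.91), Kif11 (-0.88) and Cenpe (-0.80). Of the 33 falls 19 passed in every other setting run without the length correction, and 14 were lost in at least 1 of them, among them Cenpe, Cenpf, Cdc20, Smc4, Ttk and Top2a. The rise of Bub3 was lost under quantile normalization, with fragments scaled to their sum, with the replicate number as a block and with the gene length correction. It was also lost without 1 of 4 libraries (shRNA-NC replicate 2 or 3 in medium, replicate 1 or 2 with cytokines). Kif20a fell by 0.68 on the log2 scale with the lowest limma adjusted p of the members, 1.58e-05, from 14.3, 14.4 and 13.8 FPKM to 8.02, 8.72 and 8.71. Ccnb1, Cdk1, Plk1, Aurka, Ube2c and Pttg1 did not pass, with values between -0.22 and 0.07.

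By role, all 6 centromere and kinetochore genes and all 6 spindle motor and microtubule genes fell with cytokines in shRNA-NC, as did 6 of 7 condensin and chromosome genes and 4 of 5 cytokinesis genes. None of the 3 mitotic kinases passed (Plk1 -0.08, Aurka -0.02, Nek2 -0.24). Of the cyclin and CDK1 genes 4 of 6 fell, led by Cdc25c (-0.66) and Ccnb2 (-0.62), and of the 4 mitotic exit genes Cdc20 (-0.39) and Espl1 (-0.47) did. All 8 members of 6 kb or more fell, beside 25% of all tested genes of that length, and 3 of the 4 members under 2 kb fell, beside 6.98%.

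In shRNA-Ddx5 cells 6 members fell (13.3%) and none rose, beside 13.5% of all genes that fell and 13.5% that rose. The share of members that fell was thus near that of all genes. At an unadjusted limma p under 0.05 the counts were 10 and 0, and the share of all genes there was not computed. The 6 were Kif4 (log2 -0.39), Ccnb2 (-0.35), Ncapd2 (-0.34), Kif20a (-0.27), Aurka (-0.25) and Ncaph (-0.21). Only Ncapd2 and Kif20a passed in every other setting run without the length correction. Leaving out 1 library gave from 2 calls (without replicate 3 in medium or replicate 1 with cytokines) to 11 (without replicate 1 in medium), and Aurka, Ccnb2, Kif4 and Ncaph each lost their call in at least 3 of these 6 fits. Of the 12368 genes 2284 and 2389 passed in the fits with 2 calls, and 3768 in the fit with 11. Kif4 went from 14.3, 17.6 and 18.8 FPKM in medium to 12.3, 11.9 and 13.8. The median over the members was -0.13. The 2 lines share no library. The falls in shRNA-NC and the knockdown effects given above rest on the same shRNA-NC libraries, so they are not independent results.

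**Figure D5:**
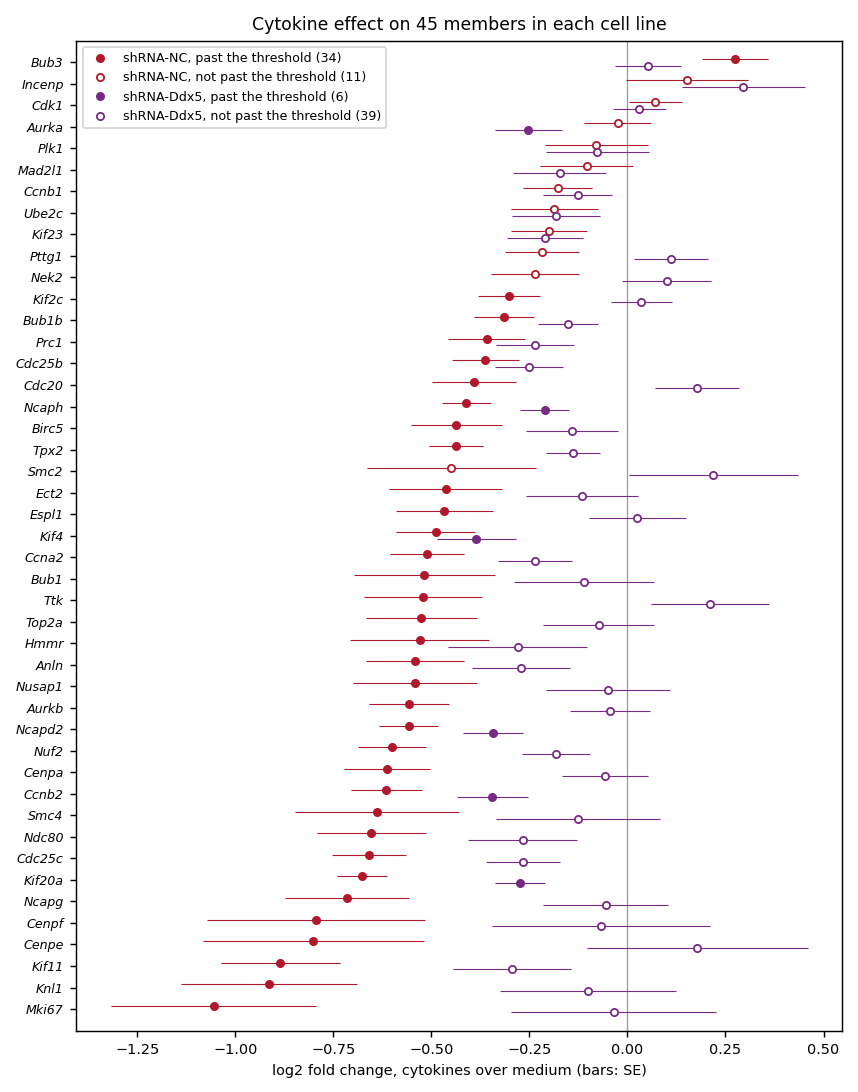
For each member the log2 fold change of cytokines over medium is given in shRNA-NC (red) and shRNA-Ddx5 (purple), with standard errors, and filled points passed the test. Most red points lie left of 0, with 34 filled, and most purple points lie nearer 0, with 6 filled.

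Whether the response differed between the lines was tested by the interaction, the knockdown effect with cytokines minus that in medium, which equals the cytokine effect in shRNA-Ddx5 minus that in shRNA-NC. Only Cdc20 (0.57, SE 0.15, limma adjusted p 0.0421) and Kif20a (0.40, SE 0.09, limma adjusted p 0.0196) passed, both positive, beside 3.46% of all genes that passed with a positive and 4.75% with a negative value. The interaction was positive for 40 of the 45 members and for 5944 of the 12368 genes tested. Its median was 0.34 over the members and -0.01 over all genes. At an unadjusted limma p under 0.05 it was positive for 19 members, and the share of all genes there was not computed. Neither Cdc20 nor Kif20a passed once any 1 shRNA-Ddx5 library with cytokines, or shRNA-NC replicate 2 in medium, was left out. For the other 43 members a different response in the lines was thus not shown. Kif20a was at 17.0, 16.5 and 17.7 FPKM in shRNA-Ddx5 in medium and at 13.9, 14.1 and 13.8 with cytokines, and the drop in shRNA-NC given above was larger.

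Other genes of the cell cycle were read from lists of known roles, also chosen with earlier results known, which hold no member. After knockdown 25.3% of all genes tested rose and 21.7% fell in medium, and 23.5% rose and 22.1% fell with cytokines. Of 32 other kinetochore and centromere genes 15 rose and none fell in medium, and 15 rose with cytokines (46.9% in both). Among them Cenpw rose by 0.85 and 1.26 on the log2 scale. Of 32 other spindle and cytokinesis genes 9 rose and 3 fell in medium, and 16 rose and 1 fell with cytokines, with Haus5, an augmin subunit, at 0.89 and 1.37. Of 21 genes of the anaphase-promoting complex and mitotic exit 11 rose in medium (52.4%) and 12 with cytokines (57.1%), and none fell. Ube2s, the partner of Ube2c, was at 0.69 and 0.59. Of 16 cohesin and condensin II genes 1 rose and 8 fell in medium, led by Smc3 (-1.01), and 4 rose and 2 fell with cytokines.

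Foxm1, the forkhead factor of G2 and M genes, had a mean FPKM of 35.8 ± 1.66 in the control and 53.0 ± 2.74 in the knockdown line in medium, and of 24.3 ± 2.56 and 41.3 ± 0.83 with cytokines (SD, n = 3 in each group). It rose after knockdown by 0.55 and 0.75 on the log2 scale and fell with cytokines in both lines (-0.55 in shRNA-NC and -0.35 in shRNA-Ddx5). Mybl2, its partner at CHR promoters, did not pass after knockdown (0.06 and -0.15). Over the 23 listed G2/M transcription regulators 8 rose and 5 fell in medium (34.8% and 21.7%, beside 25.3% and 21.7% of all genes), and 7 rose and 6 fell with cytokines (30.4% and 26.1%, beside 23.5% and 22.1%).

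Of 20 tested genes that restrain G2 and mitosis 3 rose and 11 fell in medium, and 7 rose and 9 fell with cytokines. Cdkn1a, the CDK inhibitor p21, had a mean FPKM of 2.31 ± 0.29 in the control and 1.45 ± 0.17 in the knockdown line in medium, and of 7.10 ± 0.36 and 1.73 ± 0.28 with cytokines (SD, n = 3 in each group). After knockdown it fell by 0.43 in medium and by 1.58 with cytokines on the log2 scale, and the interaction was -1.14 (SE 0.14, limma adjusted p 0.000808). Gadd45a, which inhibits CDK1, fell after knockdown in medium and with cytokines (-1.55 and -1.16), whereas Wee1, the kinase that phosphorylates and blocks CDK1, rose (0.89 and 0.43).

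Of 12 G1 cyclins and CDKs 8 rose and 2 fell after knockdown in medium (66.7% and 16.7%, beside 25.3% and 21.7% of all genes). After knockdown with cytokines 4 rose and 2 fell (33.3% and 16.7%, beside 23.5% and 22.1%). Ccnd1 rose after knockdown in medium (0.68) and fell with cytokines (-0.99), with an interaction of -1.67 (SE 0.20, limma adjusted p 0.000568). Of 42 genes of S phase and replication 24 rose and 5 fell after knockdown in medium (57.1% and 11.9%). After knockdown with cytokines 17 rose and 4 fell (40.5% and 9.52%). Tk1, thymidine kinase, was at 0.90 and 1.29 and Dbf4, the activator of the CDC7 kinase, at -0.93 and -1.26. In shRNA-NC 9 S phase genes rose with cytokines (21.4%, beside 18.6% of all genes) and 2 fell (4.76%, beside 15.2%).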

How the data were processed

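RNA-seq of 12 ATDC5 libraries was used, in 4 groups of 3 taken from the labels. The authors purified poly(A) RNA, counted fragments on genes and deposited FPKM for each library. The submitters' processing notes name HISAT2 2.0.5, featureCounts 1.5.0-p3 and DESeq2 1.20.0 with mm10, whereas the study's methods give another featureCounts version and the coordinates in the table fit GRCm39. Strandedness is not given in the sources used here, so reads of a gene and of an antisense partner cannot be told apart, and genes with near-identical pseudogene copies are uncertain. FPKM times gene length gave whole fragments within 0.01 for 100% of values of up to 1000 fragments. The authors' denominator was 1.064 to 1.076 times the sum of fragments in shRNA-NC and 0.986 to 1.022 times in shRNA-Ddx5 in medium. With cytokines it was 0.973 to 1.037 and 0.957 to 0.982 times. A higher ratio gives a lower FPKM. With fragments scaled to their sum the median log2 fold change over all genes, knockdown in medium, was -0.05 in place of 0.03.

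Values were taken as log2(FPKM + 1), on which the change of low genes is understated, and fitted with limma 3.58.1 in R 4.3.3 (4 group means over 12 libraries, 8 residual degrees of freedom, eBayes with trend, Benjamini-Hochberg adjustment over 12368 genes, threshold 0.05). The fit was also run on simulated data, and no statement here rests on the outcome. Values per library are given for the 4 members with the largest change past the threshold in each of 5 contrasts and for 10 members whatever their change. Outside the members, Ddx5, Foxm1, Mybl2, Cdkn1a, Wee1, Ccnd1 and at most 3 genes per list and knockdown contrast, those with the largest change, could be named. The markers were named as a check. The members and lists were chosen with earlier results of these data known. The other settings tried were a pseudocount of 0.1, the table without a filter, an FPKM of at least 1 in every library, quantile normalization, fragments scaled to their sum, voom weights, the replicate number as a block, only the 6 libraries of a contrast, eBayes without trend, each library left out, and a gene length correction (spline with 5 degrees of freedom). Plots came from matplotlib 3.10.9 under Python 3.11.15.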

Additional observations from a re-analysis of the deposited data

Results flagged for a closer look

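The knockdown effect of Cdc20 and of Kif20a differed between the media by the interaction term. For Cdc20 the log2 fold change of shRNA-Ddx5 over shRNA-NC was 0.51 in medium and 1.08 with cytokines, a difference of 0.57 (SE 0.15, limma adjusted p 0.0421). For Kif20a it was 0.25 and 0.66, a difference of 0.40 (SE 0.09, limma adjusted p 0.0196). Neither stayed past the threshold in every other setting. The limma adjusted p ran from 0.0151 to 0.111 for Cdc20 and from 0.0092 to 0.0586 for Kif20a, and both were over the threshold without any 1 shRNA-Ddx5 library with cytokines and without shRNA-NC replicate 2 in medium. The interaction stayed positive in each of these fits.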

How the results depend on the processing

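Rises and falls added together, the counts of members past the threshold stayed within 1.5 times the reported ones in every setting run for both knockdown contrasts and for cytokines in shRNA-NC. Taken apart, the 23 rises after knockdown in medium were 17 with quantile normalization, 20 with fragments scaled to their sum and 27 without shRNA-Ddx5 replicate 1. The 8 falls in medium were 5 with only the 6 libraries of the contrast and 5 without shRNA-Ddx5 replicate 1. After knockdown with cytokines the 33 rises ran from 30 to 34 and the 2 falls from 0 to 2. With cytokines in shRNA-NC the 33 falls ran from 22 to 38 and the 1 rise was 0 or 1. Shares of all genes by direction were not computed for these settings. Quantile normalization moved the median of the members to -0.62 for cytokines in shRNA-NC and -0.24 in shRNA-Ddx5. It turned the log2 fold change of Tpx2, knockdown in medium, to -0.029. For cytokines in shRNA-Ddx5 it gave 13 calls among the 45 members, beside 3581 of the 12368 genes in either direction. The share of members called there was near that of all genes. Scaling fragments to their sum gave 10 calls for cytokines in shRNA-Ddx5, beside 3454 of the 12368 genes. For the interaction, with 2 calls, the count was 1 with a pseudocount of 0.1, 1 without a filter, 6 with quantile normalization, 5 with fragments scaled to their sum, 5 with voom weights, 6 with the gene length correction and 4 with that correction and the replicate block, the last 2 chosen after seeing the data. Over all genes the calls were 759, 998, 1104, 996, 855, 1104 and 809 in the same order. These were out of 12368 genes, or 27209 without a filter.

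The replicate numbers were not shown to pair the libraries: same-numbered deviations of the medium groups correlated at 0.45, 0.04 and 0.31, and the means of the other group pairs ran from -0.27 to 0.01. With the replicate block 29 members passed in medium, 34 with cytokines, 30 for cytokines in shRNA-NC, 4 in shRNA-Ddx5 and 0 for the interaction (limma, with 16 at an unadjusted p under 0.05). Of the 12368 genes 5452, 5232, 3769, 2902 and 687 passed, in the same order.

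With each library left out the count ran from 2 to 11 for cytokines in shRNA-Ddx5 and from 0 to 9 for the interaction. In shRNA-Ddx5 it was 11 without replicate 1 in medium, 2 without replicate 3 in medium and 2 without replicate 1 with cytokines. Of the 12368 genes 3768, 2284 and 2389 passed, in the same order. The interaction had 9 calls without shRNA-Ddx5 replicate 2 in medium, 5 without shRNA-NC replicate 2 with cytokines, 1 without shRNA-NC replicate 1 or shRNA-Ddx5 replicate 3 in medium or shRNA-NC replicate 3 with cytokines, and 0 without shRNA-NC replicate 2 in medium or any shRNA-Ddx5 library with cytokines (15 to 16 members positive at an unadjusted limma p under 0.05). It was 3 without shRNA-NC replicate 3 or shRNA-Ddx5 replicate 1 in medium. Over all genes the interaction had 994 calls in the fit with 9 member calls and 1123 in the fit with 5. It had 559 to 632 in the fits with 0. The share of all genes at an unadjusted p under 0.05 was not computed for any of these fits. The causes were not tested. With 3 libraries a group, small differences cannot be shown.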
